A study of Mus musculus with 16 samples.

Results

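The TNF ligand and receptor superfamilies were followed in engrafted brain macrophages and host microglia of bone marrow chimeras, with and without a peripheral endotoxin challenge. Members were taken by gene symbol from the deposited count table: every symbol that begins with Tnfsf or Tnfrsf and a digit, together with Tnf, Lta, Ltb, Ltbr, Cd40, Cd40lg, Cd27, Cd70, Fas and Fasl. The rule found 41 of the 24411 genes of the table, 17 ligands and 24 receptors. Of these, 16 members (6 ligands and 10 receptors) passed the filter on low counts in at least 1 comparison, 22 had reads but passed it in none, and 3 had no read in any library.

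Ligands of the superfamily are mostly membrane-anchored trimers, some of which are shed, and their receptors cluster on binding. Receptors with a death domain can recruit caspase-activating complexes, others bind TRAF adaptors and activate NF-κB, and decoy receptors bind a ligand without signalling. In the brain, microglia are known as a main source of TNF, which acts on neurons, glia and endothelium, whereas CD40 and many of the other members are best known from contacts between antigen-presenting cells and lymphocytes.

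The chimeras were C57BL/6J wild-type recipients that had received 950 cGy and congenic wild-type bone marrow, and all 4 groups share this irradiation and transplantation, so that the host microglia are irradiated microglia. Recipients carried CD45.2 and the graft CD45.1, and Ly6C/G-negative CD11b+ brain cells with low CD45.1 (engrafted cells) or low CD45.2 (host microglia) were sorted from the same mouse, 10000 cells per library per the labels. Mice 1 to 4 had been injected with lipopolysaccharide (LPS, 2.5 mg/kg) 12 h before, and mice 5 to 8 had not, which gave 4 libraries each of engrafted cells and host microglia without LPS and after LPS. The labels give 3.5 or 9 months between transfer and analysis without assigning a time to a library. No untransplanted or vehicle-injected mice are among these groups, so injection itself and LPS cannot be told apart.

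The libraries held between 395283 and 1203597 gene-assigned reads, with a median of 820587.5, and the engrafted library of mouse 4 was the shallowest. Levels are given as CPM, the read count scaled to the effective size of its library, and 3 reads, taken as the limit of detection for a count of 0, corresponded to 2.39 to 8.41 CPM depending on the library. These limits cover counting error only. Folds given as "at least" below set each library of the lower group to 3 reads, also where it held reads. They leave out the error of the higher group and are not confidence limits. Reads come from the 3′ end of polyadenylated RNA, so CPM are compared between samples and not between genes. Of 8 genes known from microglia, all were over 3 reads in every host library and 7 in every engrafted library, with a summed level of 22180 to 25220 CPM in host and 14530 to 16470 CPM in engrafted cells without LPS, and of 11510 to 12510 and 5443 to 6976 CPM after LPS. The exception was Sall1, a transcription factor of microglia, at 289 to 361 CPM in host and 3.37 to 25.2 CPM in engrafted cells without LPS. Of 5 monocyte markers found in the table, 4 were over 3 reads in every engrafted library without LPS and 5 after LPS, none in every host library, and their sum was 176 to 310 CPM in engrafted cells against 9.57 to 25.5 CPM in host cells without LPS, and 880 to 1821 CPM against 10.3 to 23.6 CPM after LPS. The sum of 10 neutrophil markers was 268 to 1245 CPM in engrafted against 0 to 2.39 CPM in host cells without LPS, and 50.0 to 510 CPM against 9.66 to 15.0 CPM after LPS, although the gate removed Ly6C/G-positive cells. That of 5 dendritic cell markers was 13.1 to 33.7 CPM in engrafted against 0 to 5.86 CPM in host cells without LPS. After LPS it was 12.3 to 25.6 CPM against 4.83 to 8.03 CPM. These sums moved with every difference between engrafted and host cells given below, and their part in those differences was not tested. After LPS the sum of the microglia genes was lower in both populations, and the monocyte sum was higher in engrafted cells. The part of these sums in the LPS responses and in the interaction was not tested either. The host library of unchallenged mouse 5 stood apart by its summed neuron markers (163 CPM, against 11.2 to 16.5 CPM in the other 3) and astrocyte markers (39.5 CPM, against 0 to 8.74 CPM). Of the members tested, it was the highest unchallenged host library for Tnfrsf11a. It was the lowest for Tnf, Tnfsf9, Tnfsf12, Tnfsf13, Tnfsf13b, Ltbr, Tnfrsf1a, Tnfrsf12a, Tnfrsf17, Tnfrsf21 and Tnfrsf23. Without it, all members called between the populations without LPS, with LPS in host microglia and in the interaction were called again, and Tnfrsf23 was added in the first. In bulk RNA, fewer cells of a type and less RNA per cell cannot be told apart.

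The 14 members with fewer than 10 reads over all 16 libraries were Cd27, Cd40lg, Cd70, Fasl, Lta, Tnfrsf11b, Tnfrsf13c, Tnfrsf14, Tnfrsf19, Tnfrsf8, Tnfsf11, Tnfsf15, Tnfsf18 and Tnfsf4, and Cd40lg, Tnfsf4 and Tnfsf11 had none. For these 3 ligands, of which Cd40lg is known from T cells, Tnfsf4 (OX40 ligand) from antigen-presenting cells and Tnfsf11 from osteoblasts and T cells, a level of up to 2.39 to 8.41 CPM per library remains possible at this depth. None of 10 T and NK cell markers was over 3 reads in every library of any group. Their sum was not 0 in any library, at 9.07 to 31.1 CPM in engrafted and 5.83 to 15.3 CPM in host cells without LPS. After LPS it was 2.44 to 28.0 CPM in engrafted and 4.59 to 16.95 CPM in host cells. The members that were read in every library were Tnf, Tnfsf9, Tnfsf10, Tnfsf12, Tnfsf13, Tnfsf13b, Cd40, Ltbr, Tnfrsf1a, Tnfrsf1b, Tnfrsf4, Tnfrsf11a, Tnfrsf12a, Tnfrsf21 and Tnfrsf23.

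**Figure D1:**
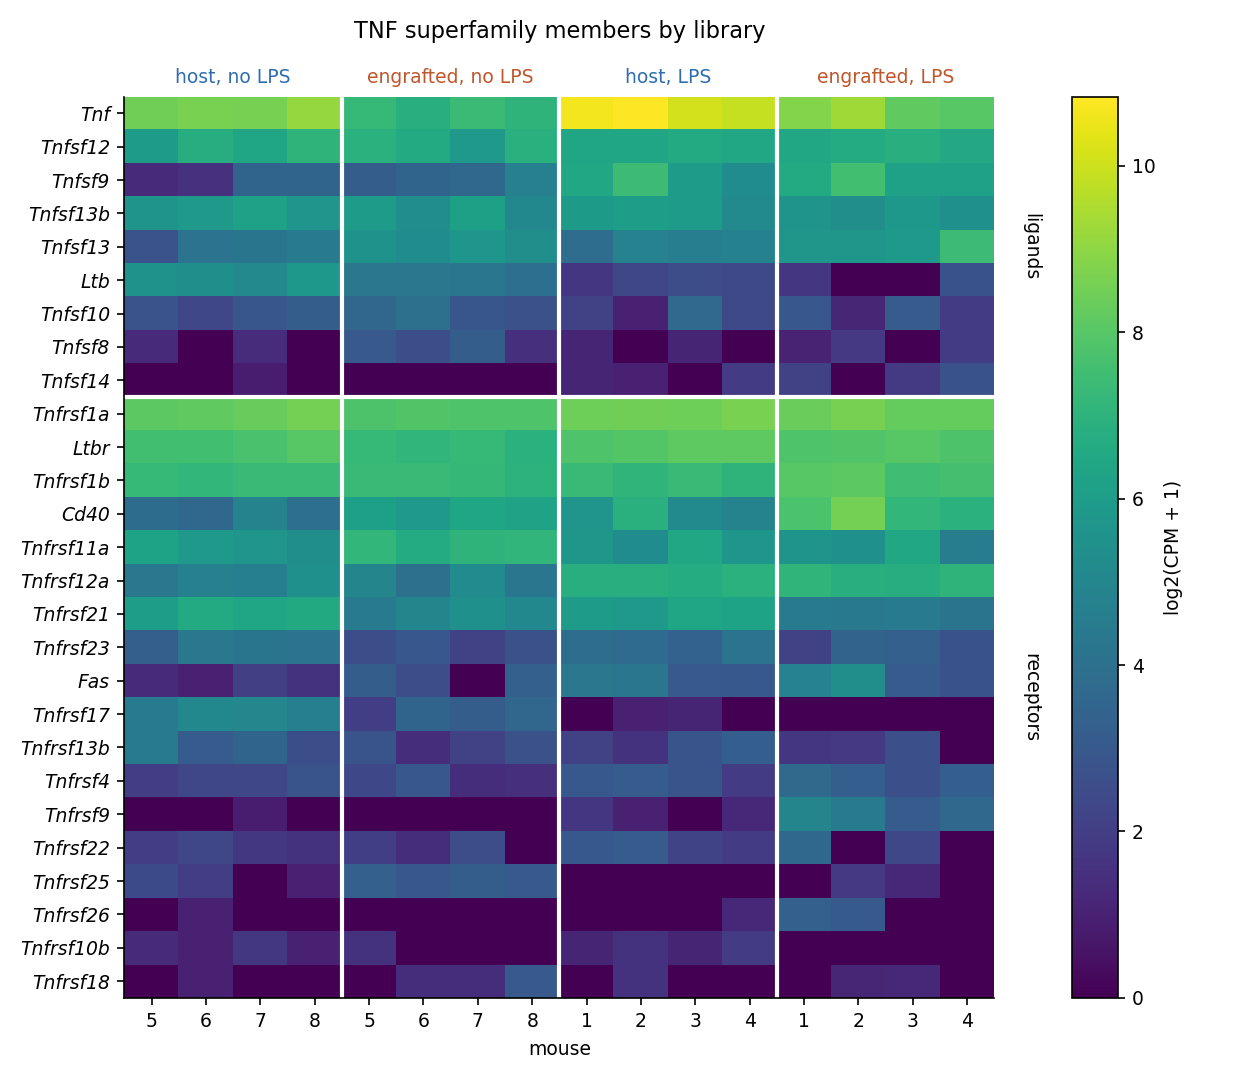
Level of the 27 members with at least 10 reads in all, as log2(CPM + 1) by colour, in each of the 16 libraries (columns, grouped by population and challenge and numbered by mouse), with ligands above and receptors below the white line and each ordered by total reads. Tnf is brightest in host microglia after LPS, Tnfrsf9 is seen almost only in engrafted cells after LPS, and Ltb and Tnfrsf17 darken after LPS in both populations.

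Engrafted cells without LPS differed from host microglia in 7 of the 13 members tested, with Cd40, Tnfsf13 and Tnfrsf11a higher and Tnf, Tnfrsf21, Tnfrsf17 and Ltb lower. To be called, a member had to differ by more than 2-fold with an adjusted p under 0.05 in edgeR's quasi-likelihood test of all genes that passed the filter. Over the 8042 genes tested, 11.0% were called, 6.25% higher and 4.73% lower in engrafted cells. The median log2 fold change (engrafted over host) was -0.11 over the 13 members and 0.02 over all genes tested. On the study's own log2 scale with limma, where the median of all genes moved by -0.14, the calls over all genes were 342 higher and 411 lower in place of 503 and 380, and the same 7 members were called. The members tested had passed a filter on low counts, and neither their share nor their median describes the 41 genes.

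After LPS, 4 of 13 tested members differed between the populations, with Cd40 and Tnfsf13 higher and Tnf and Tnfrsf21 lower in engrafted cells, each in the direction seen without LPS in other mice. Of the 7843 genes tested, 11.1% were called, 6.73% higher and 4.34% lower in engrafted cells. The median was 0.13 over the members and -0.01 over all genes. Scaling by library totals moved the median of all genes by -0.15 here and turned the calls over all genes from 528 higher and 340 lower to 448 and 471, whereas the same 4 members were called.

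**Figure D2:**
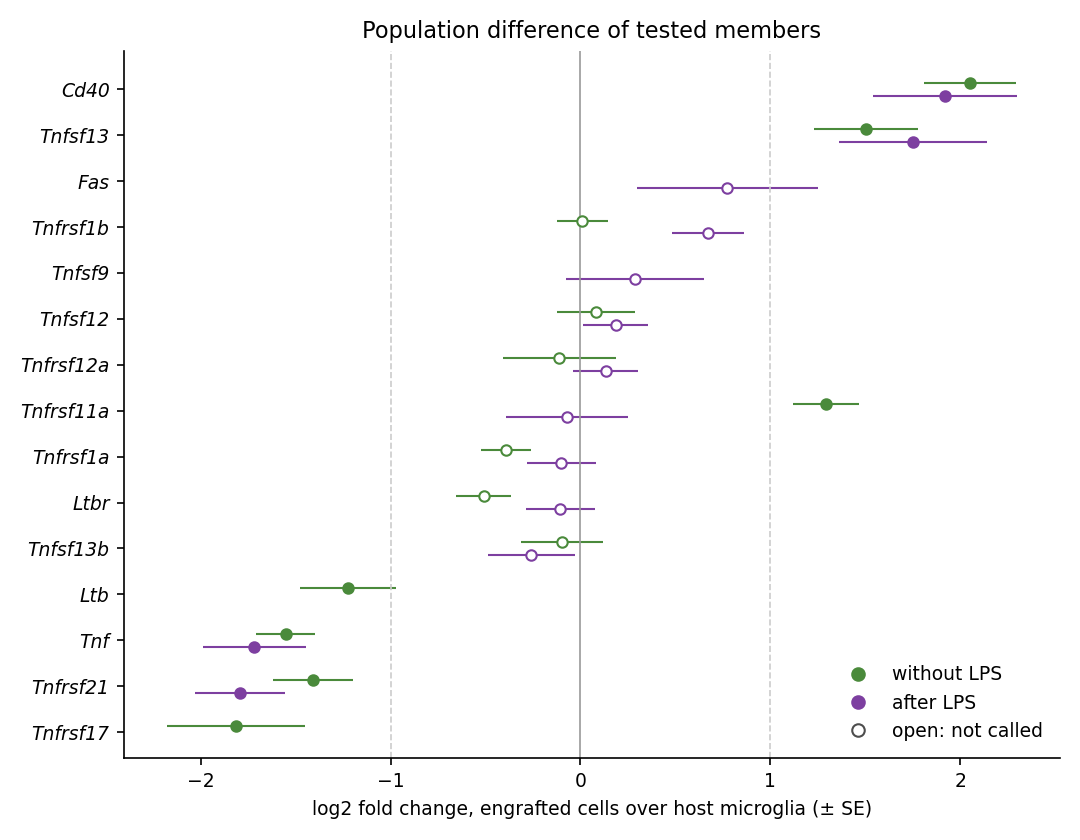
Log2 fold change of engrafted cells over host microglia (horizontal axis, points ± SE from the fit) for each member tested, without LPS in green and after LPS in purple, with filled points for called members and dashed lines at a 2-fold difference. Cd40 and Tnfsf13 lie to the right and Tnf and Tnfrsf21 to the left at both times, and Tnfrsf11a stands at 1.29 without LPS and at -0.07 after it.

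LPS changed 5 of 12 tested members in engrafted cells and 6 of 15 in host microglia. Tnfsf9, Tnfrsf12a, Cd40 and Tnf were higher after LPS in both populations, Tnfrsf11a was lower in engrafted cells, and Ltb and Tnfrsf17 were lower in host microglia. In engrafted cells 21.5% of 7609 genes were called, 10.2% higher and 11.3% lower, and in host microglia 18.0% of 8238 genes were called, 7.66% higher and 10.4% lower. The median log2 fold change of the members was 0.64 in engrafted cells and 0.03 in host microglia, against -0.01 and 0.01 over all genes. These medians cover different members, 12 in engrafted cells and 15 in host microglia. Ltb and Tnfrsf17, both called lower, and Tnfrsf23 passed the filter in host microglia alone. The medians were therefore not compared between the populations. Whether the response differed between the populations was tested as an interaction over the 16 libraries, in which 1 of 16 tested members, Tnfrsf11a, was called, against 4.95% of 8847 genes. Each population's LPS group also enters the comparison of the populations after LPS, and each group without LPS the comparison without LPS, so these comparisons share samples.

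**Figure D3:**
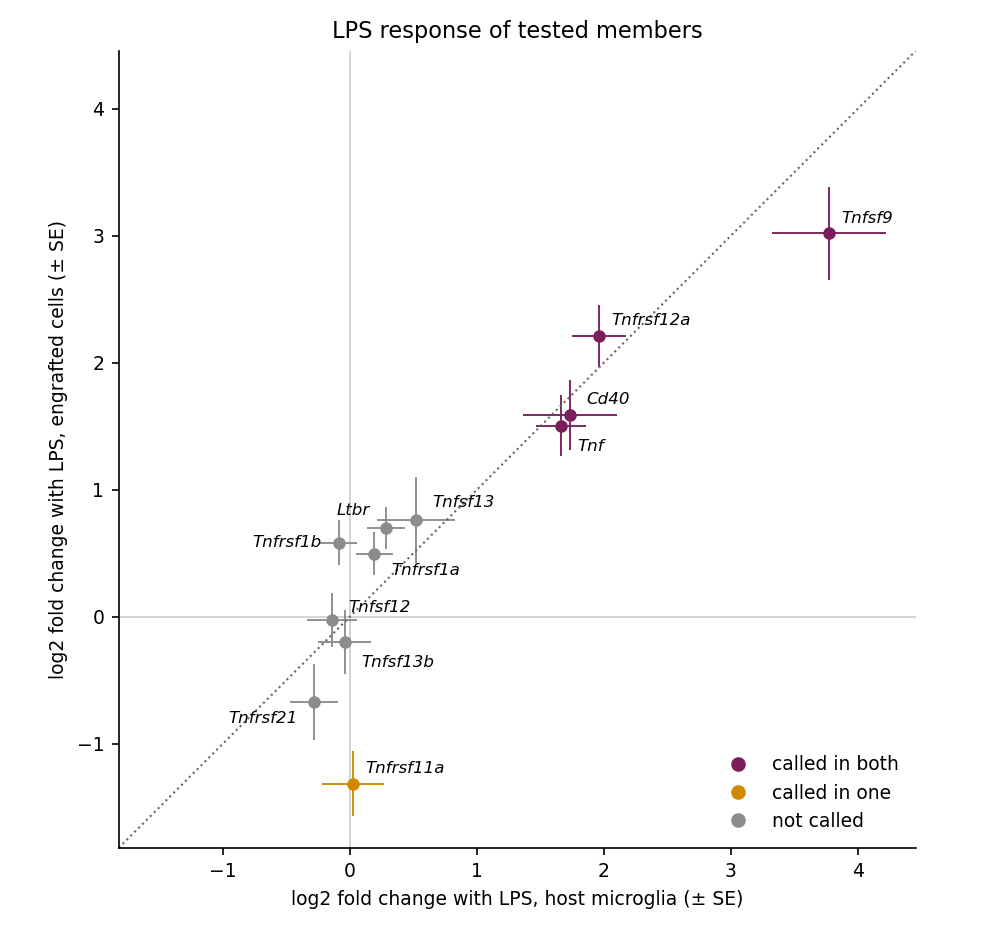
Log2 fold change with LPS in host microglia (horizontal axis) and in engrafted cells (vertical axis) for the 12 members tested in both, points ± SE from the fits, with a dotted line where both are equal. Tnfsf9, Tnfrsf12a, Cd40 and Tnf lie near the line at the upper right, and Tnfrsf11a lies below it at 0.03 and -1.31.

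The members were then examined one by one with their partners, beginning with those that rose in both populations. The 250 bases before the start of the gene model of these 4 members are shown because the genes rose together, read from the mouse genome NCBI37 (mm9) on the strand of the gene at chr2:164880886-164881135 (Cd40, plus), chr17:35338953-35339202 (Tnf, minus), chr17:57244558-57244807 (Tnfsf9, plus) and chr17:23814417-23814666 (Tnfrsf12a, minus). Capitals mark matches on either strand to the NF-κB decamer consensus, to the TATA box letters TATAAA or to the AP-1 letters TGANTCA.
Cd40: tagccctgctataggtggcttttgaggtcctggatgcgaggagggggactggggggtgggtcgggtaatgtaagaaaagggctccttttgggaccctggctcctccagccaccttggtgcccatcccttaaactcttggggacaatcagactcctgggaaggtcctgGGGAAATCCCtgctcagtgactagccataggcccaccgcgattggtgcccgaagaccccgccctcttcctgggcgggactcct
Tnf: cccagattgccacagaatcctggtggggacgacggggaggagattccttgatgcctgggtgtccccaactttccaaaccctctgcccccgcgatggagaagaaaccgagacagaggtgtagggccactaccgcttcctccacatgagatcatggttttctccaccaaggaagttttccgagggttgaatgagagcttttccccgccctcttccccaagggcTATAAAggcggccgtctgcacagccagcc
Tnfsf9: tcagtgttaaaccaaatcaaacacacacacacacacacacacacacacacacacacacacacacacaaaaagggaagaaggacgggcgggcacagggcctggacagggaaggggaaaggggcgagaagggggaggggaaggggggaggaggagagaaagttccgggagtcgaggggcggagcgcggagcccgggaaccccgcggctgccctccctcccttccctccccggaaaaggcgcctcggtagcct
Tnfrsf12a: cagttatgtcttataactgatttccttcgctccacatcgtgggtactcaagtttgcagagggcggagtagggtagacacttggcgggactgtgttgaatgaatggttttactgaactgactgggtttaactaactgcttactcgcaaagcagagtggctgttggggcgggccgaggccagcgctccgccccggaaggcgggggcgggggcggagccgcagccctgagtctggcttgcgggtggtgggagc
The NF-κB consensus matched at 1 place, 83 to 74 bases before the start of Cd40, where the letters read as a match on both strands, and TATAAA matched at 29 to 24 bases before the start of Tnf. The sequences of Tnfsf9 and Tnfrsf12a held none of the 3 motifs. No other matches overlapped. Of all 24338 such windows, 7.75% held the NF-κB consensus, 12.0% TATAAA and 6.16% TGANTCA, and among the 41 members the numbers were 5, 7 and 5. These matches are a description of the letters in this window.

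Tnf, which encodes the founding ligand (NM_013693, chr17:35336312-35338952, minus strand, mm9), was lower in engrafted cells than in host microglia at either time and rose with LPS in both. In host microglia without LPS it stood at 362, 397, 389 and 556 CPM in mice 5 to 8. The engrafted cells of the same mice held 150, 113, 164 and 130 CPM, so the populations did not overlap, and the log2 fold change was -1.55 ± 0.16 (SE, adjusted p = 1.46e-08). After LPS, host microglia of mice 1 to 4 held 1603, 1821, 1082 and 931 CPM and their engrafted cells 447, 621, 294 and 261 CPM, again without overlap (log2 fold change -1.72 ± 0.27, adjusted p = 0.000163).

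The LPS response of Tnf was 1.66 ± 0.20 on the log2 scale in host microglia (adjusted p = 6.14e-07) and 1.51 ± 0.24 in engrafted cells (adjusted p = 4.87e-05), from 426 ± 87.8 to 1359 ± 422 CPM and from 139 ± 22.4 to 406 ± 165 CPM (mean ± SD, n = 4). The difference between the responses was -0.16 ± 0.33 (adjusted p = 0.847), which does not show that they were equal. Challenged engrafted cells, at 261 to 621 CPM, overlapped with unchallenged host microglia, at 362 to 556 CPM. Within a mouse, host cells held 2.38 to 4.29 times the Tnf of engrafted cells without LPS and 2.93 to 3.68 times after LPS. Among the challenged mice the order was the same in both populations, with mouse 2 highest and mouse 4 lowest.

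The receptors of TNF, Tnfrsf1a (TNFR1, with a death domain) and Tnfrsf1b (TNFR2, which binds TRAF2), differed less than their ligand, and neither was called in any comparison. Tnfrsf1a was at 275 to 374 CPM in host and 225 to 239 CPM in engrafted cells without LPS, and the groups did not overlap (log2 fold change -0.39 ± 0.13, adjusted p = 0.0277). After LPS it was at 343 to 403 CPM in host and 305 to 394 CPM in engrafted cells, which overlapped, and the log2 fold change with LPS in engrafted cells was 0.50 ± 0.17 (adjusted p = 0.0261). Both stayed under the 2-fold threshold.

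Tnfrsf1b was at 144 to 162 CPM in host and 128 to 162 CPM in engrafted cells without LPS. After LPS the host libraries held 131 to 163 CPM and the engrafted libraries 182 to 275 CPM, all 4 above the host libraries (log2 fold change 0.67 ± 0.19, adjusted p = 0.019). The log2 fold change with LPS in engrafted cells was 0.58 ± 0.18 (adjusted p = 0.0134), and the interaction was not called (0.66, adjusted p = 0.0884). Scaling by library totals gave an adjusted p of 0.072 for Tnfrsf1b after LPS and of 0.0601 for the response of Tnfrsf1a in engrafted cells.

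Ltb, a subunit of the membrane lymphotoxin heterotrimer, lies 3061 bases from Tnf on the opposite strand (NM_008518, chr17:35331452-35333250), and its level went the other way with LPS. Host microglia without LPS held 46.8, 40.8, 33.5 and 54.1 CPM in mice 5 to 8, and engrafted cells 19.1, 18.5, 18.0 and 14.4 CPM, all below the host libraries (log2 fold change -1.23 ± 0.25, adjusted p = 0.000541). Challenged host microglia held 2 to 4 reads per library, or 2.29 to 4.83 CPM, and the log2 fold change was -3.48 ± 0.33 (adjusted p = 2.51e-08). In engrafted cells after LPS, Ltb had 2, 0, 0 and 2 reads against 8 to 19 reads without LPS, and was at least 3.63-fold lower on comparison with the limit of detection (two-sided exact permutation p = 0.029, the smallest that 4 libraries against 4 allow).

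Lta, the partner of Ltb in that heterotrimer, lies 1157 bases on the other side of Tnf (NM_010735, chr17:35340110-35342296, minus strand) and had 4 reads in all, each in a challenged library. Of 3 neighbouring ligand genes, Tnf was therefore higher and Ltb lower after LPS, and Lta was not detected beyond the limit. Ltbr, the receptor of the heterotrimer, was at 184 to 256 CPM in host and 121 to 154 CPM in engrafted cells without LPS, without overlap (log2 fold change -0.51 ± 0.14, adjusted p = 0.00943). After LPS it was at 229 to 284 CPM and 222 to 259 CPM, and the log2 fold change with LPS in engrafted cells was 0.70 ± 0.16 (adjusted p = 0.0021), under the fold threshold.

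Cd40 encodes a costimulatory receptor of antigen-presenting cells that signals through TRAF adaptors (NM_170704, chr2:164881136-164897154, plus strand), and it was higher in engrafted cells at either time. Without LPS host microglia of mice 5 to 8 held 13.2, 11.7, 27.9 and 14.3 CPM and their engrafted cells 67.5, 57.3, 81.9 and 73.8 CPM. The groups did not overlap, and the log2 fold change was 2.05 ± 0.24 (adjusted p = 2.49e-07). After LPS host microglia of mice 1 to 4 held 49.3, 116, 35.0 and 27.8 CPM and engrafted cells 217, 377, 142 and 120 CPM (log2 fold change 1.92 ± 0.38, adjusted p = 0.00142).

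With LPS, Cd40 rose by 1.73 ± 0.37 on the log2 scale in host microglia (adjusted p = 0.000705) and by 1.59 ± 0.28 in engrafted cells (adjusted p = 0.000124), and the interaction was -0.14 ± 0.50 (adjusted p = 0.921). The engrafted groups did not overlap. The host groups did, with challenged mouse 4 at 27.8 CPM and unchallenged mouse 7 at 27.9 CPM. Among the challenged mice the order was as follows. Mouse 2 stood highest in both populations and mouse 4 lowest, in the same order as for Tnf, and within a challenged mouse the engrafted cells held 3.26 to 4.40 times the host level. Without the host library of mouse 2, the response in host microglia was 1.12 and the population difference after LPS 2.53. Its ligand Cd40lg had no read.

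Tnfsf9 (4-1BBL, NM_009404, chr17:57244808-57247180, plus strand), a costimulatory ligand, showed the largest fold change with LPS of the members called higher in each population. Without LPS host microglia of mice 5 to 8 held 1, 2, 13 and 10 reads (1.46 to 10.4 CPM) and engrafted cells 8, 6, 7 and 14 reads (8.06 to 25.2 CPM), and the gene did not pass the filter in that comparison. In mice 1 to 4 after LPS, host microglia held 89.5, 171, 60.4 and 37.6 CPM and engrafted cells 98.4, 185, 71.6 and 72.9 CPM, all above the unchallenged libraries. The log2 fold change was 3.77 ± 0.45 in host microglia (adjusted p = 7.52e-07) and 3.02 ± 0.36 in engrafted cells (adjusted p = 1.85e-06), with an interaction of -0.75 ± 0.73 (adjusted p = 0.631). Mouse 2 was highest in both populations here too. A gene model on the opposite strand, Gm11110, overlaps Tnfsf9 by 558 bases, and the counting used the sense strand.

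Tnfrsf9 (4-1BB, CD137, chr4:150294264-150320211), the receptor of Tnfsf9, was read in engrafted cells after LPS, with 26, 17, 6 and 4 reads in mice 1 to 4 (7.81 to 29.1 CPM). Host microglia of the same mice had 2, 1, 0 and 1 reads, engrafted cells without LPS none, and host microglia without LPS 1 read in all. Against the limit of detection it was at least 4.84-fold higher than in challenged host microglia and at least 3.74-fold higher than in unchallenged engrafted cells (exact permutation p = 0.029 for each). It was too low to pass the filter in any comparison, and its interaction was therefore not tested. Thus both populations had Tnfsf9 reads after LPS, and the 4 engrafted libraries also had reads for its receptor beyond the limit of 3 reads.

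Tnfrsf12a (Fn14, NM_001161746, chr17:23812412-23814416, minus strand), a small receptor without a death domain that is known to be induced by injury, rose with LPS and differed little between the populations. Without LPS it was at 19.0, 25.3, 24.7 and 42.9 CPM in host microglia of mice 5 to 8 and at 29.2, 15.2, 36.0 and 18.0 CPM in engrafted cells. After LPS host microglia of mice 1 to 4 held 114, 112, 103 and 118 CPM and engrafted cells 135, 109, 108 and 132 CPM, so that all 8 challenged libraries lay above all 8 unchallenged ones and the populations overlapped. The log2 fold change was 1.96 ± 0.21 in host microglia (adjusted p = 1.72e-07) and 2.21 ± 0.24 in engrafted cells (adjusted p = 5.73e-07), with an interaction of 0.24 ± 0.33 (adjusted p = 0.752). Its ligand Tnfsf12 (TWEAK) was at 55.7 to 132 CPM over all 16 libraries and was called in none of the 5 comparisons.

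The ligands of the B cell survival system behaved differently from each other. Tnfsf13 (APRIL, NM_023517, chr11:69496079-69499056, minus strand) was higher in engrafted cells: without LPS host microglia of mice 5 to 8 held 5.86, 16.5, 17.6 and 20.4 CPM and engrafted cells 44.3, 37.1, 50.8 and 39.6 CPM, without overlap (log2 fold change 1.5 ± 0.27, adjusted p = 0.000121). After LPS host microglia of mice 1 to 4 held 13.8, 26.9, 24.1 and 26.4 CPM and engrafted cells 51.5, 52.5, 54.6 and 171 CPM (log2 fold change 1.75 ± 0.39, adjusted p = 0.00369). The value of 171 CPM (61 reads) came from the shallowest library, and without it the log2 fold change was 1.23 ± 0.25 (adjusted p = 0.00143). Tnfsf13 was not called with LPS in either population.

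A read-through model of the same strand, Tnfsfm13, spans Tnfsf12 and Tnfsf13 and held within 2 reads of the count of Tnfsf13 in 16 of 16 libraries, so reads of Tnfsf13 and of the read-through transcript cannot be told apart. Tnfsf13b (BAFF, the other ligand of the system) was at 32.4 to 72.6 CPM over all libraries, with overlapping groups, and was called in none of the 5 comparisons. Both ligands bind Tnfrsf17 (BCMA) and Tnfrsf13b (TACI), and Tnfsf13b alone binds Tnfrsf13c (BAFF receptor), which had 7 reads in all.

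Tnfrsf17 (NM_011608, chr16:11313902-11320161, plus strand), known from plasma cells, was read in unchallenged cells and hardly at all after LPS. Host microglia without LPS held 14, 33, 39 and 24 reads in mice 5 to 8 (20.5 to 32.0 CPM), and engrafted cells 3, 6, 5 and 6 reads (3.02 to 10.8 CPM), all below the host libraries (log2 fold change -1.82 ± 0.36, adjusted p = 0.000377). In challenged mice host microglia had 0, 1, 1 and 0 reads and engrafted cells 0 in each library. It was at least 7.60-fold lower after LPS in host microglia (adjusted p = 4.35e-08) and at least 1.66-fold lower in engrafted cells (exact permutation p = 0.029). Of the B cell markers, Cd79a, Pax5 and Cr2 had no read in any library. Ms4a1 and Blk were read in engrafted libraries alone, at up to 5.61 and 1.8 CPM. Cd79b was at 37.9 to 49.0 CPM in host microglia without LPS and 18.1 to 22.9 CPM after it. In engrafted cells of mice 5 to 8 without LPS, Cd79b was at 46.3, 72.5, 31.1 and 64.8 CPM. Host microglia of the same mice held 45.4, 37.9, 42.3 and 49.0 CPM of Cd79b. After LPS the engrafted libraries held at most 26.8 CPM of Cd79b. The part of Cd79b in the result was not tested. Tnfrsf13b was low, with 41 reads in the 4 host libraries without LPS, 16 in those after LPS, 12 in engrafted cells without LPS and 8 after LPS, and none of its 4 exact permutation tests was under 0.05.

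Tnfrsf11a encodes RANK, the receptor of the osteoclast factor RANKL (NM_009399, chr1:107677300-107744558, plus strand), and of the 16 members tested in the interaction it was the one called there by edgeR. Without LPS engrafted cells of mice 5 to 8 held 142, 101, 131 and 139 CPM and host microglia 77.6, 55.4, 49.4 and 40.9 CPM, without overlap (log2 fold change 1.29 ± 0.17, adjusted p = 2.07e-06). After LPS engrafted cells of mice 1 to 4 held 48.1, 42.7, 89.8 and 22.4 CPM, all below the unchallenged engrafted libraries, and host microglia 52.8, 37.9, 85.7 and 50.1 CPM. The populations then overlapped (log2 fold change -0.07 ± 0.32, adjusted p = 0.921).

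With LPS, Tnfrsf11a fell by 1.31 ± 0.26 on the log2 scale in engrafted cells (adjusted p = 0.000421), and the value in host microglia was 0.03 ± 0.24 (adjusted p = 0.944). The interaction was -1.35 ± 0.38 (adjusted p = 0.0315). This call was lost when any 1 of 9 libraries was left out, namely the engrafted libraries of mice 1, 2, 5, 7 and 8 or the host libraries of mice 3, 6, 7 and 8, with a log2 difference of -1.06 to -1.33 and an adjusted p of 0.0554 to 0.117. Mouse 3 was highest in both populations after LPS. Its ligand Tnfsf11 (RANKL) had no read and the soluble decoy Tnfrsf11b (osteoprotegerin) 2 reads in all.

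**Figure D4:**
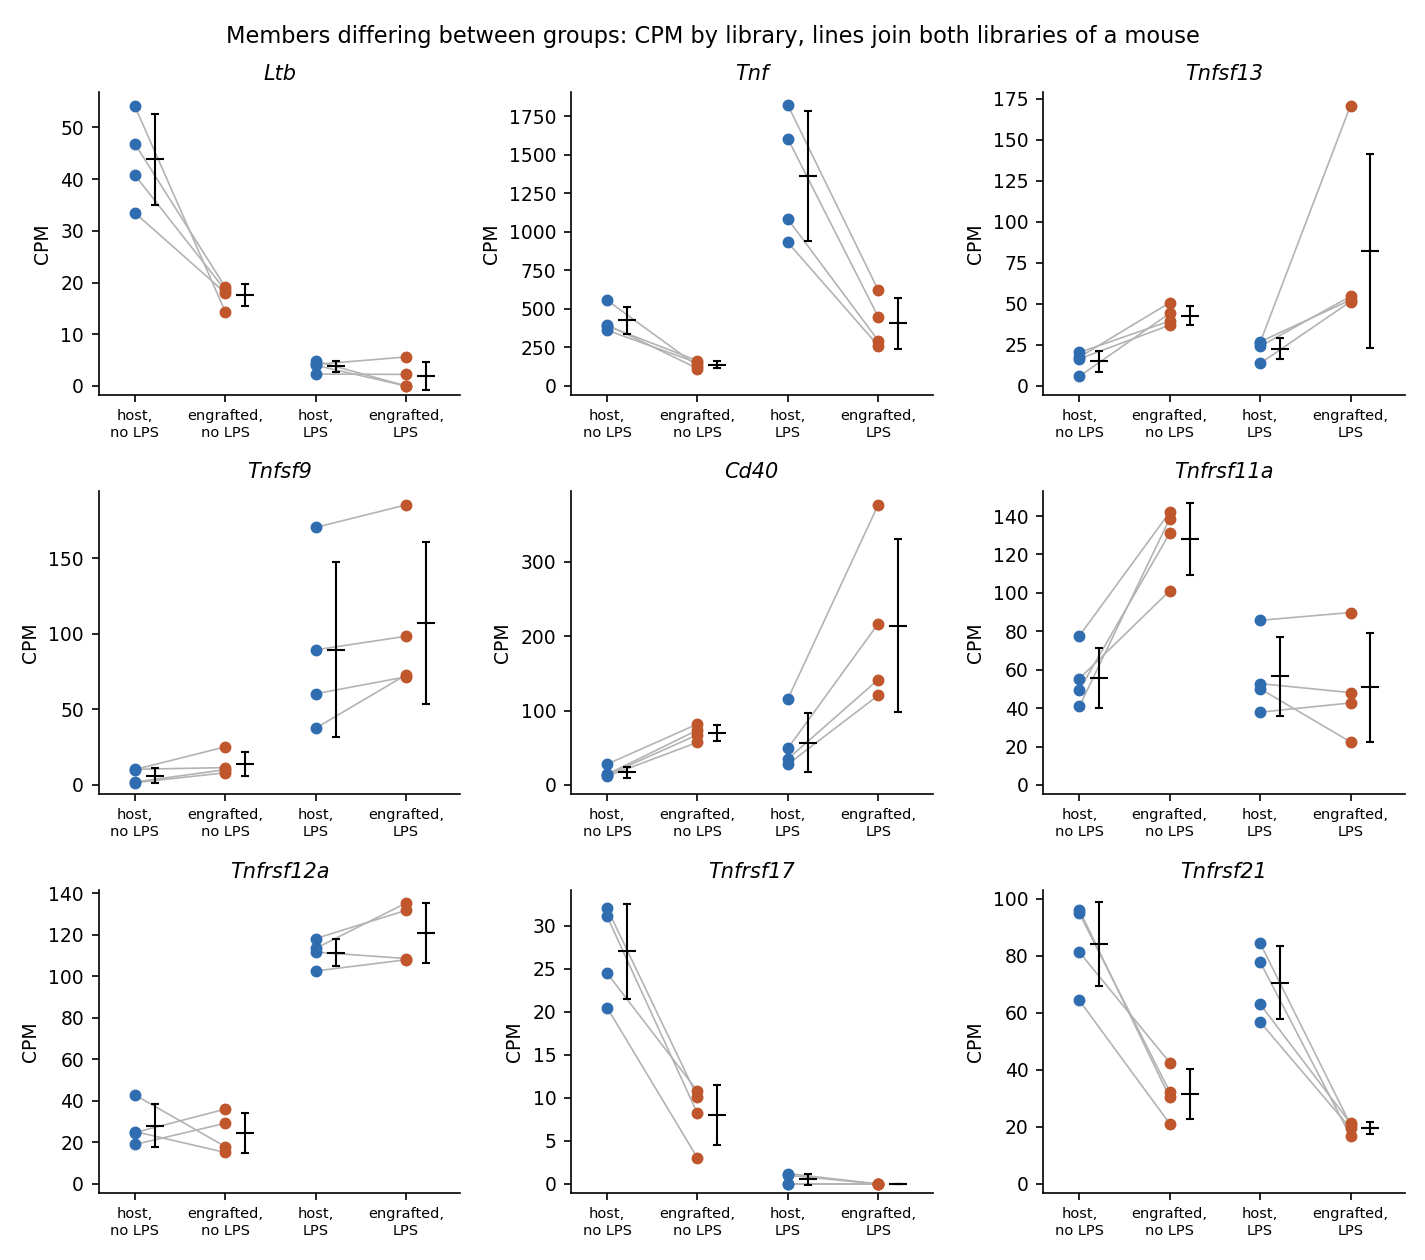
CPM of the 9 members called in at least 1 comparison (vertical axes, starting at 0 CPM and scaled per gene) in host microglia (blue) and engrafted cells (orange) without and after LPS; points are libraries, lines join the libraries of a mouse, and black marks are the mean ± SD (n = 4). Host microglia lie above engrafted cells for Tnf and Tnfrsf21 and below them for Cd40 and Tnfsf13, and Ltb and Tnfrsf17 are close to 0 after LPS.

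Tnfrsf21 (DR6, NM_178589, chr17:43153504-43226137, plus strand), an orphan death receptor known for roles in neurons and oligodendrocytes, was lower in engrafted cells at either time. Without LPS host microglia of mice 5 to 8 held 64.4, 96.2, 81.4 and 95.0 CPM and engrafted cells 21.2, 30.3, 42.6 and 32.4 CPM (log2 fold change -1.41 ± 0.21, adjusted p = 8.55e-06). Host microglia of challenged mice 1 to 4 held 63.1, 56.8, 84.5 and 77.9 CPM and engrafted cells 21.2, 19.5, 20.8 and 16.8 CPM (log2 fold change -1.79 ± 0.24, adjusted p = 2.32e-05). The populations overlapped at neither time. The log2 fold change with LPS was -0.67 ± 0.30 in engrafted cells (adjusted p = 0.0798) and -0.28 ± 0.19 in host microglia (adjusted p = 0.242), neither of them called.

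Fas, the death receptor of FASL, had few reads. Host microglia without LPS held 1, 1, 4 and 2 reads (0.97 to 3.19 CPM) and after LPS 16, 18, 6 and 5 reads in mice 1 to 4 (6.96 to 18.4 CPM), without overlap (exact permutation p = 0.029). Engrafted cells held 0 to 9.00 CPM without LPS and 5.61 to 40.3 CPM after it, which overlapped (exact permutation p = 0.2). The log2 fold change of engrafted over host cells after LPS was 0.77 ± 0.48 (adjusted p = 0.313). Fasl had 2 reads in all. Of the TRAIL system, the ligand Tnfsf10 had 82 reads over the 16 libraries with overlapping groups, and its receptor Tnfrsf10b had 14.

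The decoy-type receptors Tnfrsf22, Tnfrsf23 and Tnfrsf26 lie side by side on chromosome 7 between 150793590 and 150871780. Tnfrsf23 was read in every library, at 8.78 to 19.4 CPM in host and 3.28 to 6.74 CPM in engrafted cells without LPS, which did not overlap (exact permutation p = 0.029), and at 9.66 to 16.7 and 3.36 to 9.76 CPM after LPS, which did (exact permutation p = 0.057, and 0.029 with CPM scaled by library totals). It missed the filter in both comparisons of the populations. Tnfrsf22 had 50 reads with overlapping groups. Tnfrsf26 had 8 and 6 reads in the engrafted cells of challenged mice 1 and 2 and at most 1 in any other library. These genes are related in sequence and uniquely mapped reads alone were counted, so their counts are uncertain.

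Tnfrsf25 (DR3, a death receptor known from T cells) and Tnfsf8 (CD30 ligand) were read mainly in engrafted cells without LPS. Tnfrsf25 had 9, 4, 5 and 4 reads there in mice 5 to 8 against 3, 3, 0 and 1 in host microglia (exact permutation p = 0.029). With every host library set to 3 reads it was 2.44-fold higher. After LPS it had 0, 2, 1 and 0 reads in engrafted cells, at least 1.61-fold lower (exact permutation p = 0.029), and none in host microglia. Tnfsf8 had 7, 3, 5 and 1 reads in engrafted and 1, 0, 2 and 0 in host cells without LPS, at least 1.73-fold higher (exact permutation p = 0.029), and 4 reads in all engrafted libraries after LPS. The T and NK cell markers summed to 9.07, 28.7, 31.1 and 14.4 CPM in engrafted cells of mice 5 to 8. In host microglia of these mice the sum was 13.2, 5.83, 10.4 and 15.3 CPM. The part of these markers in the differences was not tested.

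**Figure D5:**
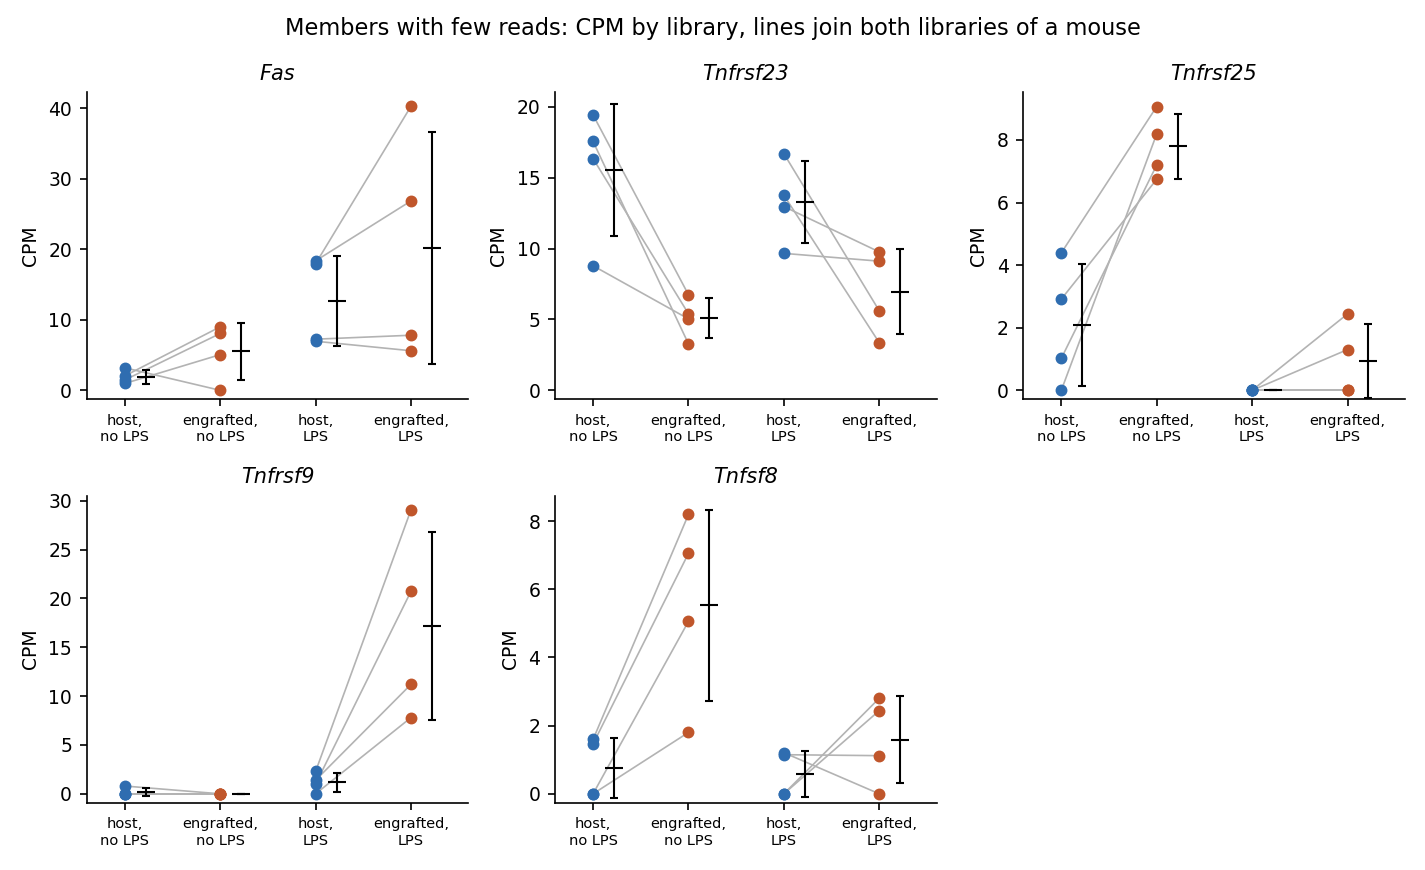
CPM of 5 members with few reads (vertical axes, starting at 0 CPM and scaled per gene) in host microglia (blue) and engrafted cells (orange) without and after LPS; points are libraries, lines join the libraries of a mouse, and black marks are the mean ± SD (n = 4). Tnfrsf9 is at 7.81 CPM or more in the 4 engrafted libraries after LPS and at most 2.29 CPM elsewhere, and Tnfrsf25 is highest in engrafted cells without LPS.

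The remaining costimulatory members were near the limit of detection. Tnfrsf4 (OX40) had 10 to 25 reads per group with overlapping groups, and Tnfsf14 (LIGHT) had 7 and 4 reads in engrafted and host cells after LPS against 0 and 1 without it. Tnfrsf18 (GITR) had 11 reads and Tnfrsf14 (HVEM) 8. In all, 36 pairs of a member and a comparison that the test over all genes left out, with at least 10 reads each, were given an exact permutation test over 15 members. Of these, 9 pairs reached 0.029, the smallest p that 70 splits of 8 libraries allow and in effect the absence of overlap, and the p-values are not adjusted. By comparison they were 3 of 9 members between the populations without LPS, 1 of 9 after LPS, 4 of 12 for LPS in engrafted cells and 1 of 6 for LPS in host microglia. Among all genes left out by the filter with at least 10 reads, the same p was reached by 13.6%, 14.9%, 16.6% and 16.8%, so the counts after LPS and in host microglia were near the background. The 70 splits treat the libraries of a mouse as independent. In an exact test over the 16 sign flips of the within-mouse differences, chosen after seeing the data, the 4 pairs that compare the populations had p = 0.13, the smallest that 4 mice allow.

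Around the members, 36 genes of TNF receptor signalling were counted as a list: adaptors, ubiquitin machinery, kinases, death effectors, shedding and mRNA decay, and 5 superfamily members under other symbols. Between the populations without LPS none of 28 tested was called, with 2 under an adjusted p of 0.05 whatever the fold and 5 under an unadjusted p of 0.05 in edgeR, and after LPS 2 of 30 (6.67%) were called, both higher in engrafted cells, against 11.0% and 11.1% of all genes tested. These were Traf1, an adaptor of TNFR2 (32.5 against 3.28 CPM, log2 fold change 3.24 ± 0.47, adjusted p = 5.35e-05), and Ripk3, the kinase of necroptosis (87.4 against 27.0 CPM, log2 fold change 1.70 ± 0.27, adjusted p = 0.000137). With LPS, 7 of 30 (23.3%) were called in engrafted cells and 6 of 29 (20.7%) in host microglia, near the 21.5% and 18.0% of all genes, and these were all higher, the direction of 10.2% and 7.66% of all genes. Birc3, Relt, Rhbdf2, Ripk3, Tnfaip3 and Tnip1 were called in both. Tnip1 in host microglia was just over the threshold, at 2.005-fold, and its groups overlapped. Traf1 was called in engrafted cells and was too low to be tested in host microglia, at 0.442 CPM without and 3.28 CPM after LPS (interaction 0.08 ± 0.53 on the log2 scale, adjusted p = 0.964).

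Tnfaip3 (A20) and Tnip1, which restrain NF-κB signalling, rose from 59.5 to 345 CPM and from 82.3 to 290 CPM in engrafted cells (log2 fold change 2.47 ± 0.30 and 1.79 ± 0.32) and from 55.9 to 324 CPM and from 80.7 to 163 CPM in host microglia (2.51 ± 0.29 and 1.00 ± 0.26). Relt, a TNF receptor superfamily member under another symbol, rose from 25.9 to 173 CPM in engrafted cells and from 21.3 to 123 CPM in host microglia. Rhbdf2, which escorts the protease that sheds TNF to the cell surface, rose from 13.2 to 48.9 CPM and from 15.8 to 41.5 CPM. None of the 30 list genes tested was called in the interaction, where edgeR gave 2 of them an unadjusted p below 0.05. Ripk3 was 7.46-fold higher with LPS in engrafted cells and 3.14-fold in host microglia (interaction 1.25 ± 0.46 on the log2 scale, adjusted p = 0.121). The median log2 fold change of the list with LPS was 0.18 over the 30 genes tested in engrafted cells and 0.01 over the 29 tested in host microglia.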

How the data were processed

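RNA of engrafted cells and host microglia from 8 chimeras was sequenced with a derivation of MARS-seq. Per the submitters' processing notes bcl2fastq, HISAT 0.1.5 and HOMER were used with the build mm9. The authors kept uniquely mapped reads and deposited raw read counts, without normalization, on the exons of 1 RefSeq model per gene, sense strand. No removal of PCR duplicates is named in the study's methods.

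Counts were tested in R 4.3.3 with edgeR 4.0.16 (quasi-likelihood test, minimum count 10, minimum total 15, TMM, prior count 0.125, Benjamini-Hochberg adjustment over all genes tested), 4 libraries against 4, and on 16 for the interaction. SE were derived from the F statistic, and CPM used TMM sizes over all genes. Folds given as "at least" divide the mean CPM of the higher group by that of 3 reads in the lower, where no library held more than 3 reads. Members with at least 10 reads that were not tested this way were compared by two-sided exact permutation tests. Both populations of a mouse carry its number. After removal of group means, Pearson's r over genes within a mouse was -0.0335 to 0.194, against -0.0591 to 0.00844 on average with other mice. Alternatives were a mouse term, RLE, library totals, DESeq2 1.42.0, other filters, 1 fit of all libraries, limma-trend (limma 3.58.1) on the study's log2 scale (10000000 tags, pseudocount 34), no fold threshold, and leaving out each library. Called and tested members are named, and the others by reads. Members and lists were chosen with earlier results of these data known. Tests were checked on simulated data. A marker of the lists is not reported here.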

Additional observations from a re-analysis of the deposited data

Results flagged for a closer look

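In a group of 4 libraries, 2 of 63 combinations of tested member and group had a library further from the others than Dixon's 95% critical value allows, and chance flags about 5% of groups. Tnfsf13 stood at 171 CPM in the engrafted cells of challenged mouse 4, against 51.5 to 54.6 CPM in the other 3 libraries. Cd40 stood at 27.9 CPM in the host microglia of unchallenged mouse 7, against 11.7 to 14.3 CPM. The LPS response of Tnfrsf11a differed between engrafted cells and host microglia by -1.35 on the log2 scale in the test of the interaction. It was the 1 call among 16 members, against 4.95% of all genes, and was lost when any 1 of 9 libraries was left out.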

How the results depend on the processing

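The 7, 4, 5, 6 and 1 members called (engrafted against host without and after LPS, LPS in engrafted and in host cells, interaction) were kept with RLE, library totals and DESeq2, and with the mouse as a replicate block, which was run for the comparisons that pair libraries of a mouse (7, 4 and 1 members) and changed no call of a member. A minimum of 10 reads in every library left 3 members called between the populations without LPS, 3 after LPS, 2 for LPS in engrafted cells, 2 for LPS in host microglia and 0 in the interaction, because the others were no longer tested. For LPS in engrafted cells, no filter gave 12 members (adding Fas, Ltb, Tnfrsf17, Tnfrsf25, Tnfrsf26, Tnfrsf9 and Tnfsf14), 1 fit of all 16 libraries 8 (adding Fas, Ltb and Tnfrsf17) and no fold threshold 8 (adding Ltbr, Tnfrsf1a and Tnfrsf1b). Elsewhere no filter added Tnfrsf23 and Tnfsf8 (without LPS) and Tnfrsf26 and Tnfrsf9 (after LPS) between the populations and Fas with LPS in host microglia, and 1 fit of all libraries added Tnfrsf23 without LPS and Fas in host microglia. Of the 9 pairs of low members, the 4 that compare the populations were retested by exact sign flips with both libraries of a mouse kept together. None of these stayed under 0.05, because 4 mice cannot go below 0.13. The other 5 compare different mice with and without LPS, so sign flips could not be applied to them. Limma gave 2 in the interaction, adding Tnfrsf17, with 331 higher and 177 lower calls over all genes against 217 and 221, and turned the interaction of Cd40 to 0.080, and the cause was not tested. Without a filter, 1454 and 1352 genes were called between the populations without and after LPS, and with 10 reads in every library the 5 comparisons had 402, 381, 816, 871 and 251.

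Leaving out 1 library gave 7 to 8 (adding Tnfrsf23 in 5 of 8), 4 to 4, 5 to 6 (adding Ltb), 6 to 6 and 0 to 1 members. Log2 differences that changed sign, none of them called, were those of Tnfrsf11a between the populations after LPS (-0.46 to 0.19) and with LPS in host microglia (-0.24 to 0.21), and the interactions of Tnf (-0.41 to 0.0066), Cd40 (-0.54 to 0.49) and Tnfrsf12a (-0.028 to 0.48). That of Tnfrsf11a ranged from -1.73 to -1.06. At these depths a count of 0 leaves a level of up to that of 3 reads in the library possible.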
